A study of Rattus norvegicus with 8 samples.

Results

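Oxidative phosphorylation was examined here through the genes that encode its protein complexes, in rat annulus fibrosus cells (AFCs) under cyclic mechanical stretch (CMS). The members are the rows of the deposited expression table whose gene symbol begins with Nduf (complex I, with its assembly factors Ndufaf), is Sdha, Sdhb, Sdhc or Sdhd (complex II), or begins with Uqcr (complex III), Cox4 to Cox8 (complex IV), Atp5 (complex V) or Mt- (genes of the mitochondrial genome). There were 107 such rows of 31699 in the table, with 101 distinct symbols. Of these, 94 rows were nuclear and 13 were mitochondrially encoded. The rule uses no expression value.

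AFCs are the cells of the outer fibrous ring of the intervertebral disc. They were isolated from Sprague Dawley rats, with the tissue of 8 animals pooled for an isolation, and all samples were infected with a lentivirus at an MOI of 20 for 24 h and then stretched at 20% elongation and 0.5 Hz for 36 h. Samples labelled Lv-Ctrl (n = 4) received the empty vector pLVX-shRNA-Puro, and samples labelled Lv-Piezo1 (n = 4) received the same vector with a short hairpin RNA against Piezo1, a calcium-permeable channel opened by membrane tension. The study made this comparison to learn what the hairpin changes in stretched AFCs. No unstretched or uninfected sample was analysed here, so nothing below measures the effect of the stretch or of the virus.

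The values are TPM, a measure of transcript abundance in which values are scaled for gene length and add up to the same total in every sample. The sequencing depth cannot be read from TPM and is unknown here, and p-values measure only the spread between the samples of a group. The Piezo1 transcript went against the label. It was 31.1, 33.0, 26.7 and 29.5 TPM in the Lv-Ctrl-labelled samples and 38.1, 37.7, 40.2 and 41.4 TPM in the Lv-Piezo1-labelled samples, so the groups did not overlap and the samples labelled as targeted were higher (log2 fold change 0.38, SE 0.065, limma adjusted p = 8.6e-04). The median log2 fold change of all tested rows was 0.14. With each column divided by its median ratio to the other samples, that of Piezo1 was 0.22 (limma adjusted p = 0.0028). Groups are therefore named by their labels throughout. Whether labels or columns were exchanged, or vector reads were counted, was not tested, and an exchange would reverse every direction given below. The study reports that it verified the effectiveness of the hairpin, in data not examined here. Markers of fibrous tissue were abundant in both groups (summed TPM of 12 genes 7159 to 8017 and 10933 to 11658), although Col2a1 and Tnmd were near 0. Col1a1 and Col1a2 were the largest parts of the sum, and Comp was low at 0.74 ± 0.22 and 2.86 ± 0.22 TPM. Endothelial markers summed to at most 0.62 TPM and the 3 red blood cell markers of 6 that have a row, which do not include the globins, to at most 0.14 TPM in any sample.

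Oxidative phosphorylation takes place in the inner mitochondrial membrane. Complexes I and II feed electrons from NADH and succinate into the respiratory chain, complex III passes them to cytochrome c, and complex IV hands them to oxygen. Complexes I, III and IV pump protons as they do so, and complex V, the ATP synthase, uses the proton gradient to make ATP. The mitochondrial genome encodes 13 of the proteins, spread over complexes I, III, IV and V, and the nuclear genome encodes all the others, including the whole of complex II. Several nuclear subunits of complex IV have alternative isoforms with their own tissue pattern. Cells of the intervertebral disc live far from blood vessels and are known for a largely glycolytic metabolism.

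Members moved in both directions. Most members that passed the test were lower in the Lv-Piezo1-labelled samples by a modest amount, whereas 3 isoform genes of complex IV, Cox6a2, Cox4i2 and Ndufa4l2, were more than 2-fold higher. Of the 107 rows, 97 had a mean of at least 1 TPM and were tested (84 nuclear and 13 mitochondrially encoded), 7 were at 0 in every sample, and the remaining 3 were below 1 TPM on average. At an adjusted p below 0.05, 46 of the 97 were lower (47.4%) and 15 were higher (15.5%), against 16.3% lower and 41.9% higher among all 13103 rows tested, and 58.2% in either direction. The groups did not overlap for 52 of the 97 members (53.6%), a share near that of all tested rows, 54.2%. Of the 97, 14 were higher without overlap (14.4%) and 38 lower (39.2%), against 39.8% higher and 14.5% lower among all tested rows. With a 2-fold threshold added to the adjusted p, limma called 4 members higher (4.12%) and 0 lower. The background of called rows was 7.67% in either direction, with 4.91% higher and 2.76% lower, so the share of members called higher lay near the background.

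The median log2 fold change was -0.13 over the tested members and 0.14 over all tested rows. TPM adds up to a fixed total, so a difference in very abundant transcripts shifts all others. When each column was divided by its median ratio to the other samples, the median of all tested rows moved to -0.0046, and that of the members to -0.29. On that scale 63 members were lower and 7 were higher at an adjusted p below 0.05 (64.9% and 7.22%), against 27.9% in each direction and 55.8% in all among the tested rows. With the 2-fold threshold, 3 members were then called higher and 1 lower, where 3.92% of all rows were called higher and 3.57% lower (7.49% together). Members also lie among the more abundant transcripts. The 2914 tested rows at or above 44.6 TPM, the 10th percentile of the nuclear subunit genes, had a median log2 fold change of 0.06 on the deposited scale, and 43.0% of them were below 0. Across the 77 nuclear subunit genes, level and log2 fold change had a Spearman correlation of -0.26, where the genes share all 8 libraries. Fewer mitochondria, fewer cells of a kind and less RNA per cell cannot be told apart in these bulk samples.

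**Figure D1:**
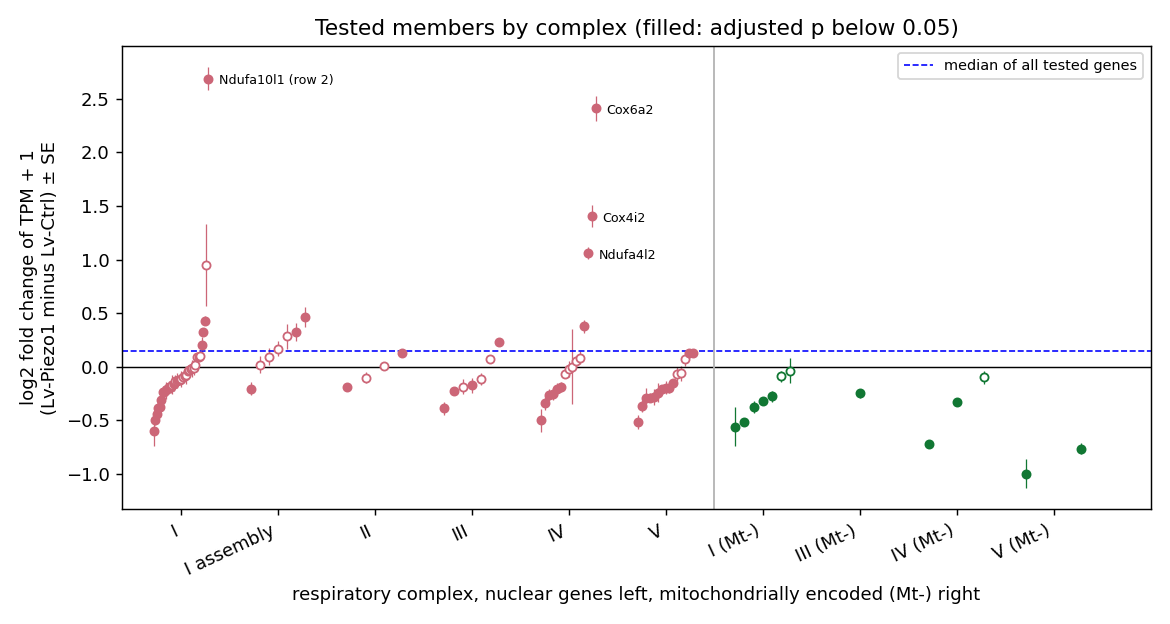
Log2 fold change of TPM + 1 (Lv-Piezo1-labelled minus Lv-Ctrl-labelled, vertical axis) of each of the 97 tested members, grouped by respiratory complex along the horizontal axis. Bars are the SE of the fit, filled points have an adjusted p below 0.05, the dashed line is the median of all tested genes at 0.14, and row 2 of Ndufa10l1 is the additional row that carries this symbol. Most points of complexes I, III and V lie below 0, all 13 mitochondrially encoded genes lie below 0, and 4 nuclear points lie above 1.

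Complex IV held 3 of the 4 members called. Its tested nuclear rows numbered 15, of which 4 rose (26.7%, against 41.9% of all tested rows), 6 fell (40%, against 16.3%) and 5 did not pass. The median log2 fold change of these rows was -0.02. Cox4i2 encodes the alternative isoform of subunit 4, a regulatory subunit, and is known from lung and from tissues low in oxygen. Its level was 23.3, 20.4, 29.2 and 23.99 TPM in the Lv-Ctrl-labelled samples and 67.1, 72.5, 63.3 and 58.9 TPM in the Lv-Piezo1-labelled samples. Every Lv-Piezo1-labelled sample was above every Lv-Ctrl-labelled sample. The log2 fold change was 1.41 (SE 0.10, limma adjusted p = 4.2e-06), or 1.25 with median-ratio scaling. Cox4i1, the ubiquitous isoform, was far more abundant, at 1104 ± 76.2 TPM and 1172 ± 79.1 TPM (mean ± SD, n = 4 each). Its groups overlapped and its difference did not pass the test (log2 fold change 0.09, limma adjusted p = 0.25), and the sign turned with median-ratio scaling (-0.08). As a share of the summed TPM of both genes, Cox4i2 made up 2.17%, 1.90%, 2.35% and 2.13% in the Lv-Ctrl-labelled samples and 5.39%, 5.37%, 5.24% and 5.13% in the Lv-Piezo1-labelled samples. The share differed by 3.15 percentage points (exact permutation test, two-sided, 70 relabelings, p = 0.0286, the smallest this design can give). Such a share within a sample does not depend on how its column is scaled. Cox4i1 was still the source of nearly all the transcripts of the pair in every sample.

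Ndufa4 and Ndufa4l2 moved apart. Ndufa4 was first assigned to complex I and is now known as a subunit of complex IV. Ndufa4l2 is its close relative, known as a target of hypoxia-inducible factor that lowers respiratory activity. Ndufa4l2 was 108.6, 109.7, 120.4 and 100.1 TPM in the Lv-Ctrl-labelled samples and 241.8, 235.4, 217.5 and 222.8 TPM in the Lv-Piezo1-labelled samples, with no overlap (log2 fold change 1.06, SE 0.058, limma adjusted p = 6.3e-07). With median-ratio scaling the log2 fold change was 0.90, under the 2-fold threshold. Ndufa4 was 187.1, 173.2, 205.2 and 178.2 TPM in the Lv-Ctrl-labelled samples and 151.4, 159.1, 143.1 and 134.0 TPM in the Lv-Piezo1-labelled samples, again without overlap and in the opposite direction (log2 fold change -0.34, SE 0.066, limma adjusted p = 0.0019). Ndufa4 was the more abundant of the pair in every Lv-Ctrl-labelled sample, and Ndufa4l2 was the more abundant in every Lv-Piezo1-labelled sample. The Ndufa4l2 share of the pair rose from 37.1% ± 1.18 to 61.0% ± 1.23 (SD, n = 4 each), a difference of 23.9 percentage points (exact two-sided permutation test, p = 0.0286). The RefSeq model of Ndufa4l2 overlaps that of its neighbour Shmt2 at one end, and reads from the overlap cannot be assigned with certainty. Shmt2 differed by a log2 fold change of 0.16.

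Subunit 6A also has a ubiquitous isoform, Cox6a1, and an isoform of heart and skeletal muscle, Cox6a2. Cox6a2 was 8.09, 8.83, 9.60 and 5.96 TPM in the Lv-Ctrl-labelled samples and 44.9, 46.9, 47.7 and 48.4 TPM in the Lv-Piezo1-labelled samples. The spread within the Lv-Piezo1-labelled samples was small, and the groups were far apart (log2 fold change 2.41, SE 0.12, limma adjusted p = 2.9e-07). Cox6a1 did not pass the test, at 1225 ± 80.2 and 1267 ± 49.1 TPM (n = 4 each). Cox6a2 accounted for 0.66% ± 0.099 of the summed TPM of the pair in the Lv-Ctrl-labelled samples and for 3.58% ± 0.24 in the Lv-Piezo1-labelled samples (SD, n = 4 each). Of 6 tested markers of skeletal and cardiac muscle, Mb fell and the other 5 did not pass. The 11 markers in the table summed to 13.3 to 60.2 TPM in the Lv-Ctrl-labelled samples and 22.5 to 25.9 TPM in the Lv-Piezo1-labelled samples, with Myod1 at 0 in all samples. The highest sum belonged to Lv-Ctrl replicate 2, where Ckm was 14.0 TPM and Acta1 22.1 TPM. Cox6a2 in that sample lay within the range of its group. In the other Lv-Ctrl-labelled samples Acta1 was 1.59 to 2.14 TPM, below the 7.94 to 9.83 TPM of the Lv-Piezo1-labelled samples. Tnnt3 (6.93 to 8.09 against 10.2 to 11.8 TPM) and Tnni2 (0.29 to 0.63 against 0.75 to 1.19 TPM) were also lower there. Ckm and Myh4 overlapped, and Mb was higher there. Without Lv-Ctrl replicate 2 the log2 fold change of Cox6a2 was 2.45. Another muscle isoform, Cox7a1, stayed low at 2.32 ± 0.77 and 2.64 ± 2.06 TPM (n = 4 each) and did not pass the test.

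**Figure D2:**
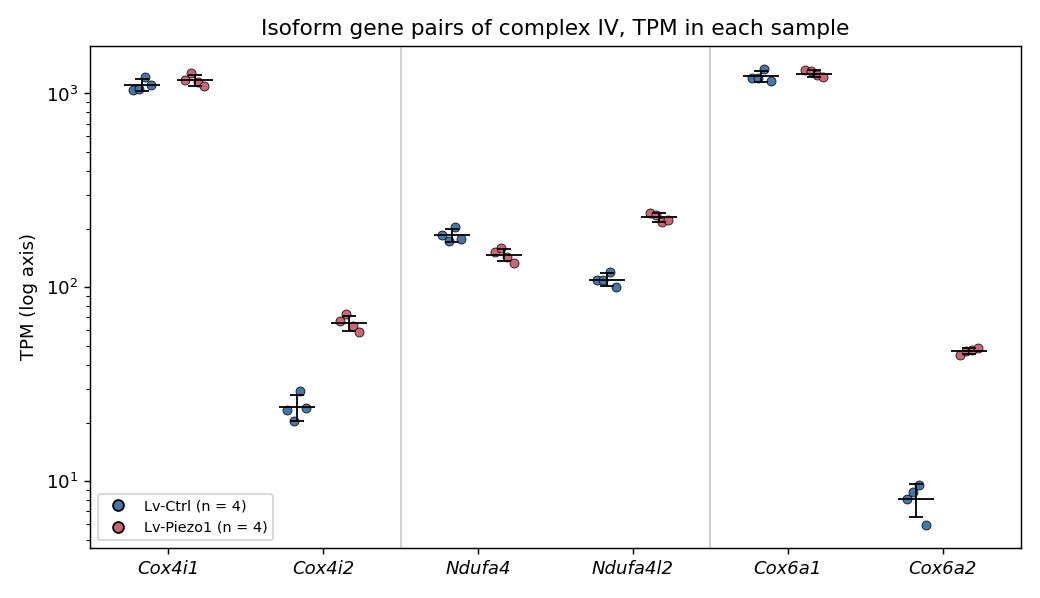
TPM (log axis) of 3 isoform gene pairs of complex IV in each sample, with the Lv-Ctrl-labelled samples to the left of the Lv-Piezo1-labelled samples for each gene. Points are samples, horizontal bars are means and error bars are SD (n = 4). Cox4i2, Ndufa4l2 and Cox6a2 are higher in all 4 Lv-Piezo1-labelled samples than in any Lv-Ctrl-labelled sample, Ndufa4 is lower, and the groups overlap for Cox4i1 and Cox6a1.

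**Figure D3:**
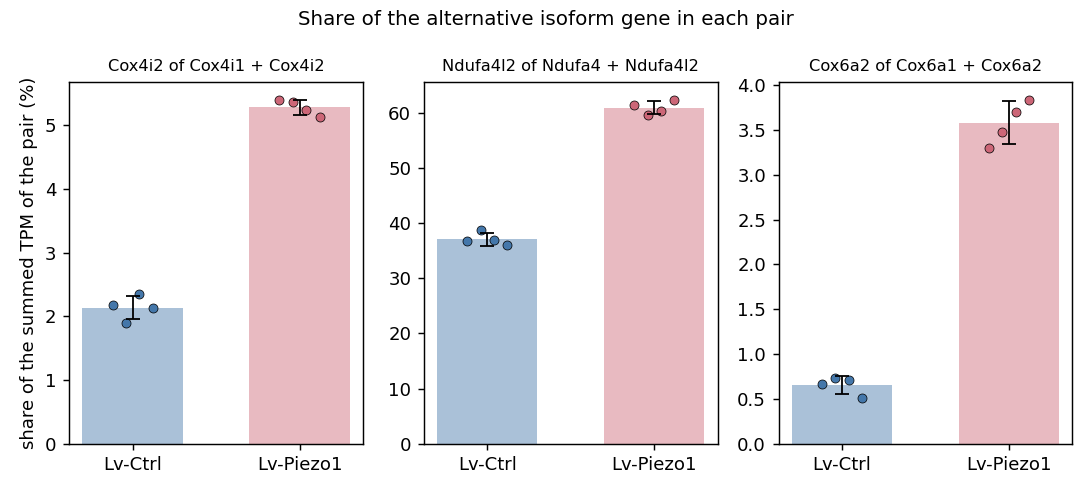
Share of Cox4i2, Ndufa4l2 and Cox6a2 in the summed TPM of its isoform pair (vertical axes, %, each panel with its own range from 0). Bars are means, points are samples and error bars are SD (n = 4). The mean share goes from 2.14% to 5.28% for Cox4i2, from 37.1% to 61.0% for Ndufa4l2 and from 0.66% to 3.58% for Cox6a2.

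The promoters of Cox6a2, Ndufa4l2, Ndufa4 and Cox4i1 are shown because the isoforms of a pair moved differently. The promoter of Cox4i2 was not analysed here, and that of Cox6a1 is not shown. RefSeq sequences of the 250 bases before the start site (GRCr8) were found for 76 of the 101 member symbols. The letters searched were ACGTG, the core bound by hypoxia-inducible factors, TGCGCA, the half-site of NRF1, an activator of many respiratory genes, AAAATAG, a part of the site of the muscle factor MEF2, and CAGCTG, an E-box of muscle factors, each on both strands. The last 3 were set after the sequences had been read. Matches are in capitals below, and the 4 motifs do not overlap one another in these windows.
Cox6a2, chr1:192219717-192219966, minus strand: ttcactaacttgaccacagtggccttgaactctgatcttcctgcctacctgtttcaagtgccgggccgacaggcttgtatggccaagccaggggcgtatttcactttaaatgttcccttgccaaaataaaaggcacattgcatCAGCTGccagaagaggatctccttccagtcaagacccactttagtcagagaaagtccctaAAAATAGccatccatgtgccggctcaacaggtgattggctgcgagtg
Ndufa4l2, chr7:65241919-65242168, plus strand: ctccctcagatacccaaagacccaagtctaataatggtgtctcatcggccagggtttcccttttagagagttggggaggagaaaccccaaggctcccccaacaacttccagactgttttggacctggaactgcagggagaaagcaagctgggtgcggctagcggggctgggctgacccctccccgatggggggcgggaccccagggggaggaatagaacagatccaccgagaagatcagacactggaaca
Ndufa4, chr4:40975560-40975809, minus strand: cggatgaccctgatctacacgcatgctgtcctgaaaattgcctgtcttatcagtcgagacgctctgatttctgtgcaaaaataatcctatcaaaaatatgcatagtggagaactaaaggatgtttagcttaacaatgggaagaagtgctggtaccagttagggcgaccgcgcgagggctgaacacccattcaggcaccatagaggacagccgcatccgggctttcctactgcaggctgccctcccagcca
Cox4i1, chr19:65630133-65630382, plus strand: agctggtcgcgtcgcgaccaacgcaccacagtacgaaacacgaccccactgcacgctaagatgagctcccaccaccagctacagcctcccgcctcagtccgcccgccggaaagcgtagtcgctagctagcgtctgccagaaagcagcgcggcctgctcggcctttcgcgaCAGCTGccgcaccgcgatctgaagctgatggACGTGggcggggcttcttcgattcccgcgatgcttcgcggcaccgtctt
The Cox6a2 window holds AAAATAG, with its first base at -47 from the start, and CAGCTG at -107. It lies inside a longer RefSeq gene model of Cox6a2 that begins farther upstream. AAAATAG was found in 5 of the 76 member promoters (6.58%) and in 4.11% of all 33469 promoters. The Cox4i1 window holds ACGTG at -49 and CAGCTG at -80. The windows of Ndufa4l2 and Ndufa4 hold none of these letters, which says nothing about sites elsewhere. Over all members, ACGTG was found in 18 of 76 promoters (23.7%), against 16.6% of all promoters, and TGCGCA in 20 of 76 (26.3%), against 6.14%. CAGCTG was found in 9.21% of member promoters and 12% of all promoters. These matches describe letters in a window and not bound sites.

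Of the other 12 tested nuclear rows of complex IV, 6 fell, 1 rose and 5 did not pass. Cox7a2l2, which the table describes as subunit 7A2, had the lowest log2 fold change among them (34.3, 32.2, 39.4 and 32.9 TPM in the Lv-Ctrl-labelled samples against 23.5, 29.7, 24.1 and 20.1 TPM, log2 fold change -0.50, limma adjusted p = 0.0037). Ndufa4 and the small subunits Cox6c, Cox7b, Cox7c and Cox6b1 also fell, the last 4 by log2 fold changes of -0.19 to -0.26. Cox5a, a matrix subunit, rose from 108.8 ± 7.48 to 141.7 ± 9.28 TPM (log2 fold change 0.38, limma adjusted p = 6.0e-04), although it did not pass the test with median-ratio scaling (log2 fold change 0.22, adjusted p = 0.051). Cox5b and Cox7a2l, a factor that joins complexes III and IV into supercomplexes, did not pass the test. Cox7b2 and Cox8c were at 0 in all samples.

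Complex I had the most nuclear rows. Of the 36 tested, 5 rose (13.9%, against 41.9% of all tested rows), 15 fell (41.7%, against 16.3%) and 16 did not pass. The median log2 fold change was -0.12, or -0.28 with median-ratio scaling. On that scale 3 rose (8.33%) and 24 fell (66.7%), against 27.9% of all tested rows in each direction. The core subunits carry the flavin and the iron-sulfur clusters along which electrons move. Among the 7 nuclear core subunits, only Ndufs1 fell (log2 fold change -0.16, limma adjusted p = 0.049) and only Ndufv1 rose (log2 fold change 0.09, limma adjusted p = 0.034), and the latter was negative and did not pass with median-ratio scaling (-0.07). Of the other 29 rows, 14 fell (48.3%) and 4 rose (13.8%). With median-ratio scaling 5 of the 7 core subunits fell and none rose (71.4% lower), and 19 of the other 29 rows fell and 3 rose (65.5% lower). Ndufa2, an accessory subunit near the electron entry site, was 352.5, 358.5, 388.3 and 360.2 TPM in the Lv-Ctrl-labelled samples and 267.0, 272.8, 260.9 and 234.7 TPM in the Lv-Piezo1-labelled samples (log2 fold change -0.49, SE 0.052, limma adjusted p = 4.2e-05). All 4 Lv-Piezo1-labelled samples were below the lowest Lv-Ctrl-labelled sample. Ndufa3, Ndufb11, Ndufa6 and Ndufb4, accessory subunits of the membrane arm or its junction, fell by log2 fold changes of -0.31 to -0.44. Ndufv3, an accessory subunit of the matrix arm, moved the other way, at 61.3, 58.8, 65.2 and 61.6 TPM against 83.9, 86.2, 79.4 and 84.1 TPM (log2 fold change 0.43, limma adjusted p = 2.4e-05, and 0.27 with median-ratio scaling). Ndufb10 and Ndufa12 also rose, by 0.32 and 0.21, of which Ndufa12 did not pass with median-ratio scaling.

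Some complex I rows need care. The lowest log2 fold change, -0.60, belonged to Ndufv3-ps1 (30.0 ± 6.003 to 19.3 ± 2.82 TPM, limma adjusted p = 0.0050), a row that carries a pseudogene symbol and may share reads with Ndufv3. The highest belonged to the additional row of Ndufa10l1, described as an Ndufa10-like gene. It was listed at 0, 0.05, 0 and 0 TPM in the Lv-Ctrl-labelled samples and at 5.07, 5.01, 5.59 and 6.56 TPM in the Lv-Piezo1-labelled samples (log2 fold change of TPM + 1 2.69, limma adjusted p = 9.4e-08). The main row of that symbol, described as subunit A10, was 79.6 ± 3.01 and 85.1 ± 2.79 TPM and did not pass, so the assignment of reads between both rows is uncertain. The tested row with the symbol Ndufb2 carries the description of another gene.

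Assembly factors help to build complex I and are not part of it. Of 7 tested, Ndufaf6 rose (20.3 ± 2.62 to 28.3 ± 1.82 TPM, log2 fold change 0.47, limma adjusted p = 0.0020), Ndufaf7 rose by 0.32, Ndufaf2 fell by 0.21 on the log2 scale (limma adjusted p = 0.017), and 4 did not pass. Of the tested assembly factors, 28.6% rose and 14.3% fell, against 41.9% and 16.3% of all tested rows. With median-ratio scaling Ndufaf7 no longer passed. The median was 0.17, close to the 0.14 of all tested rows, and with the replicate number as a block Ndufaf2 did not pass.

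Complex II, which also serves the citric acid cycle, showed small differences. Sdhd, a membrane anchor, fell from 101.1, 104.9, 106.5 and 102.0 TPM to 90.4, 90.4, 88.8 and 94.2 TPM (log2 fold change -0.19, SE 0.032, limma adjusted p = 9.5e-04). Sdhc, the other anchor, rose from 131.3 ± 2.28 to 143.7 ± 3.40 TPM (log2 fold change 0.13, limma adjusted p = 0.0047), but with median-ratio scaling its sign turned (-0.03). The catalytic subunit Sdha and the iron-sulfur subunit Sdhb did not pass the test (log2 fold changes -0.10 and 0.0096). On the deposited scale 25% of the genes thus rose and 25% fell, against 41.9% and 16.3% of all tested rows. With median-ratio scaling Sdha (-0.26) and Sdhb (-0.15, limma adjusted p = 0.033) passed as lower. On that scale 3 of the 4 genes fell (75%, against 27.9% of all tested rows) and none rose.

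Complex III had 7 tested nuclear rows, of which 1 rose (14.3%, against 41.9% of all tested rows), 3 fell (42.9%, against 16.3%) and 3 did not pass. Cyc1, which encodes its cytochrome c1, does not match the rule and is counted below among the electron carriers. It did not pass (175.0 ± 9.77 and 188.4 ± 13.5 TPM, log2 fold change 0.10, limma adjusted p = 0.16). Uqcr10, a small subunit, fell from 360.0, 380.0, 416.5 and 377.9 TPM to 296.4, 311.8, 302.8 and 261.9 TPM (log2 fold change -0.39, SE 0.062, limma adjusted p = 5.9e-04). The core proteins moved apart. Uqcrc2 fell from 86.9 ± 3.62 to 74.1 ± 1.69 TPM, and Uqcrc1 rose from 135.8 ± 2.87 to 159.6 ± 3.89 TPM (log2 fold change 0.23, limma adjusted p = 1.7e-04), although Uqcrc1 did not pass with median-ratio scaling (0.07). Uqcrh also fell, and Uqcrfs1, the Rieske iron-sulfur protein, did not pass.

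In complex V, 10 of 15 tested nuclear rows fell (66.7%, against 16.3% of all tested rows), 2 rose (13.3%, against 41.9%) and 3 did not pass. The median log2 fold change was -0.20, or -0.36 with median-ratio scaling. On that scale 11 fell (73.3%, against 27.9%) and none rose. The membrane part of complex V, which carries the proton channel, and its peripheral stalk had 8 of 11 rows lower (72.7%) and none higher at an adjusted p below 0.05. Atp5mf, a membrane subunit, was 577.1, 591.1, 702.5 and 655.9 TPM in the Lv-Ctrl-labelled samples and 442.3, 472.3, 415.7 and 428.1 TPM in the Lv-Piezo1-labelled samples (log2 fold change -0.52, SE 0.067, limma adjusted p = 1.5e-04). Atp5mg and Atp5mc2, the latter a source of the rotating c ring, fell by 0.37 and 0.29 on the log2 scale. The F1 part did not follow in full. Atp5f1b, a catalytic subunit, and Atp5f1d, of the central stalk, each rose by 0.13 (limma adjusted p = 0.0020 and 0.0054). Both turned to -0.04 with median-ratio scaling. Atp5f1a, of the F1 head, fell by 0.15 on the log2 scale. Atp5if1, the inhibitor that stops the enzyme from running backwards, fell from 1134 ± 133.6 to 926.9 ± 22.3 TPM (log2 fold change -0.28, limma adjusted p = 0.0089).

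All 13 mitochondrially encoded genes had negative log2 fold changes, with a median of -0.33. Of these, 10 fell at an adjusted p below 0.05 (76.9%, against 16.3% of all tested rows) and 3 did not pass. With median-ratio scaling 12 fell (92.3%, against 27.9%) and 1 did not pass. Together the 13 genes made up 7.53%, 7.59%, 6.87% and 7.74% of the TPM of the Lv-Ctrl-labelled samples and 5.77%, 5.69%, 6.05% and 6.16% of the Lv-Piezo1-labelled samples, with no overlap. The nuclear members made up 2.12% ± 0.13 and 1.95% ± 0.060 (SD, n = 4 each). The ratio of mitochondrially encoded to nuclear TPM was 3.71, 3.72, 2.99 and 3.65 in the Lv-Ctrl-labelled samples and 2.93, 2.81, 3.18 and 3.25 in the Lv-Piezo1-labelled samples. The groups overlapped in this ratio through Lv-Ctrl replicate 3, which was the highest of its group in 62 of the 84 tested nuclear members and the lowest in 8 of the 13 mitochondrially encoded members. Without that sample, 17 members were higher and 44 lower at an adjusted p below 0.05, and the share of the mitochondrially encoded genes differed by -1.70 percentage points in place of -1.52. Lv-Piezo1 replicate 2 was the highest of its group in 49 nuclear members and the lowest in 9 mitochondrially encoded members, and without it the counts were 14 higher and 46 lower.

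**Figure D4:**
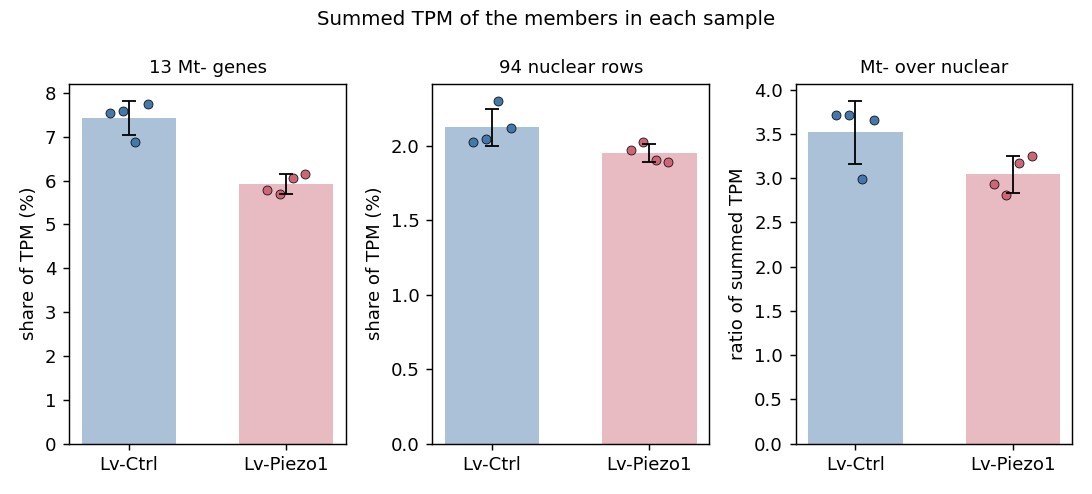
Summed TPM of the 13 mitochondrially encoded members and of the 94 nuclear member rows as a share of each sample (%), and the ratio of the first to the second. Bars are means, points are samples and error bars are SD (n = 4). The mitochondrially encoded share is lower in every Lv-Piezo1-labelled sample, and 1 Lv-Ctrl-labelled sample, replicate 3, overlaps the Lv-Piezo1-labelled samples in the ratio.

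The log2 fold changes of these genes, which are transcribed together from the mitochondrial genome, ranged from -0.04 to -0.999. The ATP synthase genes had the lowest log2 fold changes. Mt-atp8 was 6356, 7040, 5404 and 8487 TPM in the Lv-Ctrl-labelled samples and 3279, 3292, 2995 and 3976 TPM in the Lv-Piezo1-labelled samples (log2 fold change -0.999, SE 0.13, limma adjusted p = 2.0e-04). It fell just short of the 2-fold threshold and was called with median-ratio scaling (-1.16), and without Lv-Ctrl replicate 1, Lv-Ctrl replicate 3 or Lv-Piezo1 replicate 4. Mt-atp6 was 3020, 2865, 3199.9 and 2855 TPM against 1727, 1866, 1807 and 1628 TPM (log2 fold change -0.76, SE 0.052, limma adjusted p = 2.6e-06). Both genes overlap in the mitochondrial genome and share a transcript, so their separate values are uncertain.

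Complex IV has 3 mitochondrially encoded subunits, which form its catalytic core. Mt-co2, which receives electrons from cytochrome c, was 5433, 5657, 5714 and 5944 TPM in the Lv-Ctrl-labelled samples and 3357, 3381, 3501 and 3514 TPM in the Lv-Piezo1-labelled samples (log2 fold change -0.73, SE 0.034, limma adjusted p = 2.7e-07). Mt-co3 fell from 12097 ± 446.7 to 9636 ± 241.0 TPM (log2 fold change -0.33), a difference that quantile normalization removes by construction, since it fixes the highest ranks. Mt-co1, which carries the site of oxygen reduction, was the most abundant member, at 28665, 28074, 24258 and 27188 TPM against 24444, 23861, 26049 and 26435 TPM. Its groups overlapped and it did not pass (log2 fold change -0.10, limma adjusted p = 0.17), but it passed with median-ratio scaling (-0.26) and without Lv-Ctrl replicate 3 (-0.15). Leaving Mt-co1 out, the mitochondrially encoded genes made up 4.73% ± 0.24 and 3.40% ± 0.10 of the TPM (SD, n = 4 each).

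The mitochondrially encoded subunits of complex I ranged from -0.04 to -0.56. Mt-nd4 fell from 1784 ± 68.1 to 1250.0 ± 24.1 TPM (log2 fold change -0.51, SE 0.033, limma adjusted p = 1.9e-06), and Mt-nd3, Mt-nd1 and Mt-nd2 fell by 0.38, 0.32 and 0.28 on the log2 scale. Mt-nd4l overlaps Mt-nd4. It was 1678, 1815, 992.1 and 1781 TPM in the Lv-Ctrl-labelled samples and 980.4, 928.2, 1036 and 1207 TPM in the Lv-Piezo1-labelled samples, so replicate 3 of Lv-Ctrl lay among the other group (log2 fold change -0.56, limma adjusted p = 0.027). Without Lv-Ctrl replicate 1, 2 or 4, or Lv-Piezo1 replicate 1, 2 or 3, it no longer passed, with log2 fold changes of -0.48 to -0.56. Mt-nd5 did not pass (636.5 ± 96.2 and 616.1 ± 57.8 TPM), and nor did Mt-nd6, the only member encoded on the light strand (1103 ± 51.9 and 1035 ± 56.2 TPM), which passed with median-ratio scaling (-0.25). Mt-cyb, the mitochondrially encoded subunit of complex III, fell from 5840.1 ± 298.2 to 4908 ± 142.2 TPM (log2 fold change -0.25, limma adjusted p = 7.9e-04), but did not pass with quantile normalization (-0.019, adjusted p = 0.61).

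**Figure D5:**
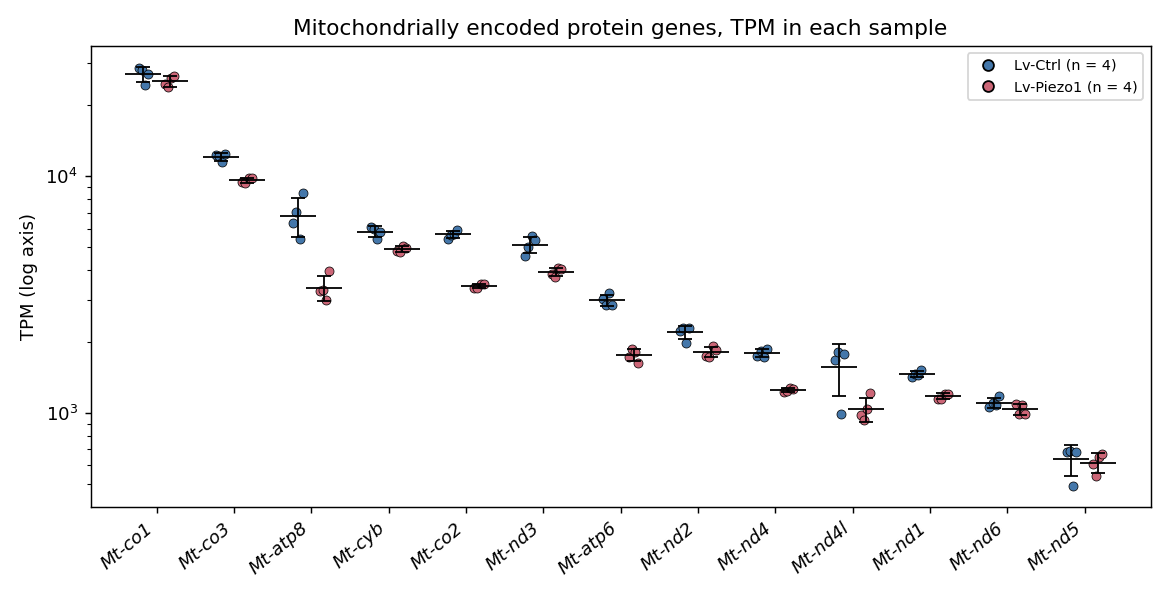
TPM (log axis) of the 13 mitochondrially encoded protein genes in each sample, ordered by their mean in the Lv-Ctrl-labelled samples. Points are samples, horizontal bars are means and error bars are SD (n = 4). The gap between the groups is widest for Mt-atp8, Mt-atp6 and Mt-co2, and the groups overlap for Mt-co1, Mt-nd4l, Mt-nd5 and Mt-nd6.

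Not every row of the mitochondrial genome was lower. The table also holds 24 rows named only after an entry of that genome, of which 22 were at 0 in every sample. The other 2, chosen here after their values were seen, rose in the Lv-Piezo1-labelled samples. ENSRNOG00000030478 went from 861.6 ± 32.1 to 1802 ± 28.6 TPM (log2 fold change 1.06, limma adjusted p = 1.6e-08) and ENSRNOG00000043866 from 643.0 ± 21.0 to 1844 ± 21.4 TPM (log2 fold change 1.52). With these rows counted, the mitochondrial share of the TPM differed by -1.30 percentage points.

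The other genes of respiration were read from lists. Among 39 tested electron carriers and assembly factors, 9 rose (23.1%, against 41.9% of all tested rows), 5 fell (12.8%, against 16.3%) and 25 did not pass, with a median log2 fold change of 0.07. With median-ratio scaling, where 27.9% of all tested rows passed in each direction, the balance turned. Then 5 of these genes rose (12.8%) and 9 fell (23.1%), with a median of -0.08. The only one called was Chchd10, a protein of the intermembrane space that helps organise the inner membrane, which rose from 9.24 ± 0.88 to 25.9 ± 1.40 TPM (log2 fold change 1.39, SE 0.071, limma adjusted p = 4.1e-07). Cycs, which encodes cytochrome c, did not pass (128.7 ± 1.57 and 129.6 ± 6.63 TPM). Of 71 tested genes of the mitochondrial ribosome, 18 rose (25.4%, against 41.9% of all tested rows), 14 fell (19.7%, against 16.3%) and 39 did not pass. Here too the balance turned with median-ratio scaling, where 10 rose (14.1%) and 22 fell (31%). None of these genes was called by limma, although 32 passed at the adjusted p alone, where 7.67% of all tested rows were called.

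Among 26 tested genes of mitochondrial biogenesis and transcription, 11 rose (42.3%), 2 fell (7.69%) and 13 did not pass. The share that rose lay at the background of 41.9%, and the share that fell lay below that of 16.3%. The median of 0.17 was near the 0.14 of all tested rows. With median-ratio scaling the median was 0.03, and 6 rose (23.1%) and 3 fell (11.5%), against 27.9% of all tested rows in each direction. Polrmt, the mitochondrial RNA polymerase, rose from 7.46 ± 0.53 to 9.72 ± 0.41 TPM (log2 fold change 0.34, limma adjusted p = 0.0012). Tfam, which packages and transcribes mitochondrial DNA, and Nrf1 did not pass (log2 fold changes 0.05 and 0.18), and Ppargc1a, a master coactivator, was listed at 0.23 ± 0.087 and 0.34 ± 0.12 TPM and was not tested. Slirp and Lrpprc, partners that stabilise mitochondrial messenger RNA, are named after their values were seen. Slirp fell from 129.8 ± 7.76 to 90.5 ± 10.1 TPM (log2 fold change -0.52) and Lrpprc rose from 17.6 ± 0.56 to 21.8 ± 0.45 TPM (0.29, and 0.14 with median-ratio scaling).

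Among 25 tested genes of the citric acid cycle and pyruvate dehydrogenase, 11 rose (44%), 4 fell (16%) and 10 did not pass. These shares lay near the 41.9% and 16.3% of all tested rows, and the median log2 fold change was 0.08. With median-ratio scaling 6 rose (24%) and 11 fell (44%), against 27.9% of all tested rows in each direction. Pdk4, a kinase that shuts off pyruvate dehydrogenase, was the only one called and fell from 44.4 ± 4.46 to 17.2 ± 1.44 TPM (log2 fold change -1.32, SE 0.083, limma adjusted p = 1.7e-06). The kinases Pdk1, Pdk2 and Pdk3 rose by 0.32, 0.21 and 0.40. Of the enzyme subunits, Pdha1 and Dld fell (log2 fold changes -0.36 and -0.29) and Dlat rose (0.29).

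The hypoxia response list was read because Ndufa4l2 and Cox4i2 are known to respond to low oxygen. Of its 25 tested genes, 20 rose (80%, against 41.9% of all tested rows), 4 fell (16%, against 16.3%) and 1 did not pass. The median log2 fold change was 0.33. With median-ratio scaling 14 rose (56%) and 4 fell (16%), against 27.9% of all tested rows in each direction. Egln3, a prolyl hydroxylase that marks hypoxia-inducible factor for degradation, rose from 1.43 ± 0.24 to 15.2 ± 0.60 TPM (log2 fold change 2.74, limma adjusted p = 1.5e-08). Epas1, which encodes the factor HIF-2 alpha, rose from 6.24 ± 0.95 to 31.7 ± 1.80 TPM (2.18), and P4ha2, a collagen prolyl hydroxylase, rose from 47.9 ± 2.25 to 128.6 ± 3.62 TPM (1.41). Hif1a, Vegfa and Lonp1, chosen after their values were seen, rose by 0.98, 1.12 and 0.77. Not all genes of the list went that way. Adm, a secreted peptide, fell from 1596 ± 49.8 to 853.1 ± 33.0 TPM, and Bnip3 and Higd1a, both mitochondrial, fell by 0.19 and 0.17 on the log2 scale. Egln2, a relative of Egln3, fell from 42.0 ± 1.52 to 36.1 ± 1.60 TPM (log2 fold change -0.21, limma adjusted p = 0.0026). The oxygen level in the cultures was not tested.

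Markers of other cells moved between the groups too, and their part in the results was not tested. The summed pericyte and mural markers (11 of 12 listed genes in the table) were 570.9 to 619.9 TPM in the Lv-Ctrl-labelled samples and 368.8 to 388.1 TPM in the Lv-Piezo1-labelled samples. Kcnj8 was the largest part of the sum in the Lv-Ctrl-labelled samples, and members of the list moved apart. Of the 7 tested, 5 rose (71.4%, against 41.9% of all tested rows) and 2 fell (28.6%, against 16.3%). Rgs5, Rgs4, Notch3 and Vtn were below 1 TPM on average and were not tested. Kcnj8 and Abcc9, a potassium channel pair, fell. Kcnj8 went from 319.5 to 332.4 TPM down to 36.2 to 42.5 TPM, and Abcc9 from 59.5 to 81.7 TPM down to 11.2 to 13.7 TPM. Mcam, Des, Cspg4, Anpep and Pdgfrb rose by log2 fold changes of 2.95, 1.68, 0.78, 0.23 and 0.15. Of these, Anpep and Pdgfrb did not pass with median-ratio scaling. Macrophage and leukocyte markers (8 of 8 in the table) summed to 21.8 to 23.6 TPM and 37.1 to 42.3 TPM. Adgre1 and C1qa were at 0, and Ptprc, Csf1r and Itgam were near 0. Cd14 was most of the sum in the Lv-Ctrl-labelled samples. It rose by a log2 fold change of 0.29 and did not pass with median-ratio scaling. Cd68 rose from 0.955 ± 0.90 to 12.3 ± 0.90 TPM (log2 fold change 2.88, limma adjusted p = 2.7e-05). Of 10 tested fibrous tissue markers, 6 rose (60%, against 41.9% of all tested rows) and 3 fell (30%, against 16.3%). Those that fell were Dcn, Fmod and Mkx (log2 fold changes -1.49, -0.99 and -0.76). Thbs4 had the largest rise (3.21), and Lum did not pass.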

How the data were processed

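RNA-seq was measured in 8 samples of stretched AFCs, 4 labelled Lv-Ctrl and 4 labelled Lv-Piezo1, and samples were grouped by their titles. Per the study's methods, the authors filtered the reads and used HISAT2 for mapping to the rat genome and StringTie for transcripts. The submitters' processing notes name DESeq2 and mm10, a mouse build, while the table carries rat gene identifiers, and the annotation is not given in the sources used here. The table as deposited gives TPM computed by the authors, although the methods name FPKM, with the authors' mean of each group beside them, which was not used. Gene coordinates and promoters come from RefSeq (GRCr8). TPM shares reads between overlapping or near-identical genes and makes each value depend on the most abundant transcripts.

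From these values log2(TPM + 1) was computed for the 13103 rows with a mean TPM of at least 1, so fold changes of low genes are understated. Group differences were tested by limma 3.58.1 (R 4.3.3) with a linear model, trended empirical Bayes moderation and Benjamini-Hochberg adjustment over all 13103 rows. A gene rose or fell at an adjusted p below 0.05, and was called when its absolute log2 fold change was also at least 1. No count model was used, since TPM values are not counts. Shares of isoform pairs were tested by exact permutation, two-sided (SciPy 1.17.1). On simulated data for 10769 genes of this comparison, 196 of 200 changed genes were called in the right direction and no unchanged gene was called, while 17 unchanged genes had an adjusted p below 0.05.

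The members and gene lists were chosen with earlier results of these data known. The genes named are the isoform genes, the Sdh genes, Atp5if1, the Mt- genes, every called member, the largest rise and fall in each complex, and up to 3 called rises and falls of each other list, with Piezo1, Ppargc1a, Tfam, Nrf1, Polrmt and Cycs. Other genes were named after their values were seen. Cox7a2, Cox8a and Cox8b, which the rule also names, have no row under these symbols. The samples were analysed as unpaired, since the labels tie no replicate number to an isolation and same-numbered samples did not deviate together. The alternatives were another pseudocount, other filters, median-ratio scaling, quantile normalization, leaving out the Mt- rows, moderation without a trend, a relative fold threshold, the replicate block and leaving out each sample.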

Additional observations from a re-analysis of the deposited data

Results flagged for a closer look

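Of 102 groups of 4 samples examined, 5 held a sample far from the others by Dixon's ratio, where chance gives about 1 in 20 groups. Lv-Ctrl replicate 3 was low in Mt-nd4l (992.1 TPM, with the others of its group at 1678 to 1815 TPM), in Mt-nd5 (492.2 TPM against 682.6 to 687.7 TPM) and in Pdk4 (37.8 TPM against 45.7 to 47.3 TPM). Lv-Ctrl replicate 1 was low in Sdhc (128 TPM against 132.2 to 132.8 TPM). The additional row of Ndufa10l1 was 0.05 TPM in Lv-Ctrl replicate 2 and 0 in the others. The cause was not tested.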

How the results depend on the processing

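Cox4i2, Ndufa4 and Ndufa4l2 kept their direction and an adjusted p below 0.05 (limma) under each alternative run. Their log2 fold changes ranged from 1.25 to 1.496, from -0.50 to -0.29 and from 0.90 to 1.10. Members lower at an adjusted p below 0.05 numbered 39 to 63, and members higher 7 to 17, the 7 with median-ratio scaling. Members called higher numbered 3 to 5. Members called lower went from 0 to 1 with median-ratio scaling, with the fold threshold set relative to the median of all genes and without Lv-Ctrl replicate 1, Lv-Ctrl replicate 3 or Lv-Piezo1 replicate 4 (0 to 1 over the samples left out). Mt-atp8 was at -1.16 with median-ratio scaling and -0.89 to -1.10 with a sample left out. Cox4i1 was -0.077 with median-ratio scaling and passed at 0.15 with quantile normalization. With a sample left out, the shares of Cox4i2 and Ndufa4l2 differed by 3.07 to 3.22 and by 23.4 to 24.4 percentage points, but the smallest exact permutation p was then 0.057.

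Signs turned for genes close to 0. With median-ratio scaling this held for Sdhb (-0.15), Sdhc (-0.033), Cox6a1 (-0.11), Atp5f1d (-0.035), Tfam (-0.11) and Cycs (-0.15), and with quantile normalization for Sdhb (-0.017), Tfam (-0.072) and Cycs (-0.040). Without the Mt- rows, Sdhb and Cycs were at -0.014 each. With a sample left out, Mt-nd5 ranged from -0.16 to 0.025, Sdhb from -0.013 to 0.030, Cox7a1 from -0.33 to 0.24 and Cycs from -0.016 to 0.037. Over 41 other named genes, 641 values were computed, of which 594 kept direction and call, 12 lost the call, 12 gained it and 23 turned sign. Quantile normalization fixes the highest ranks by construction, so Mt-co1 and Mt-co3 were at 0 there, and Mt-cyb (-0.019) and Mt-nd4l (-0.51) did not pass.

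The study's methods count each pooled isolation as a repeat, so both groups may come from the same isolations, but no label ties a replicate number to an isolation. Same-numbered samples correlated at -0.058 to -0.012, so the numbers were not taken as pairs. With the replicate number as a block, 14 members were higher and 42 lower, and 4 were called. All Mt- rows are protein-coding, so limiting them to those changed nothing. The unknown depth limits what can be said of low rows such as Cox7a1 and Ppargc1a.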
